A study of Mus musculus with 12 samples.

Results

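The genes of MHC class II antigen presentation were followed in mouse splenic B cells by 9 members: H2-Aa, H2-Ab1, H2-Eb1, H2-Oa, H2-Ob, H2-DMa, Cd74, Ciita and Ctss. A probe set was taken where the platform annotation maps it to one of these symbols alone, which gave 17 of the 45037 probe sets tested. H2-Aa had 4 of them, H2-Ab1 and Ciita 3 each, H2-DMa 2 and the others 1 each. The brightest over 12 arrays stands for its gene unless another is named. Arrays of 6 groups, 2 per group, were labelled Jmjd2a-depleted, Jmjd2c-depleted and control, each at day 3 and at day 1. All cells were B220+ cells, purified with magnetic beads from spleens of C57BL/6 mice that carry the transgene Tg(IghelMD4)4Ccg, which gives B cells a receptor for hen egg lysozyme (HEL). All were stimulated with an antibody against CD40, interleukin-21 and HEL, so the controls had the same signals and the same transgene as the cells labelled depleted. Jmjd2a (Kdm4a) and Jmjd2c (Kdm4c) are histone demethylases. The labels describe siRNA transfection in one place and a virus with shRNA in another, give no age of the mice, and call the replicates biological without naming separate animals or cultures. The p-values therefore measure only the spread between these arrays, which may be technical. One description text stands on both day 3 controls, and a day 0 named in the design is not analysed here. By its title, the study is about genes under the control of both demethylases as plasma cells form.

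MHC class II molecules are pairs of an alpha and a beta chain that show peptides from endosomes to CD4+ T cells. The invariant chain Cd74 fills their groove and guides them to endosomes, cathepsin S (Ctss) trims it there, and H2-DM exchanges its last fragment for peptide. H2-DO, made of H2-Oa and H2-Ob, binds H2-DM and inhibits it, and is made mainly by B cells. Ciita is the coactivator that switches class II genes on, by docking on factors bound to a promoter module, and plasma cells silence it. B cells need class II to receive help from follicular helper T cells.

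The promoters of the class II genes are shown first, because Ciita acts through them. The module joins an X box, bound by the RFX factors, and an inverted CCAAT box (the Y box), bound by NF-Y. RefSeq promoter windows (GRCm38.p6, 250 bases before to 50 bases after an annotated start) were matched by symbol for 6 members: H2-Aa, H2-Eb1, H2-Oa, H2-Ob, H2-DMa and Ctss, with 2 windows for H2-DMa. The letters searched were AGNAAC for the RFX core and CCAAT for the CCAAT box, on both strands, and the ordered pair was AGNAAC followed on the same strand by ATTGG with 15 to 40 bases between, in which the 2 motifs do not overlap. Capitals mark the core and the inverted CCAAT box, and each stretch is written in the direction of its gene.
H2-Oa (chr17:34092287-34092350, + strand): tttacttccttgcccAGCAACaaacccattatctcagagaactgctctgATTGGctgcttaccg
H2-Ob (chr17:34238802-34238862, + strand): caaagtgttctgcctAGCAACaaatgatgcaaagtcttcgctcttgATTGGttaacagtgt
H2-Aa (chr17:34287857-34287919, - strand): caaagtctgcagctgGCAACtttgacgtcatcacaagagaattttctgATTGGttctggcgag
H2-Eb1 (chr17:34305760-34305822, + strand): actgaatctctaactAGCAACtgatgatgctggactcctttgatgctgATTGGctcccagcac
The pair AGNAAC and ATTGG was in the windows of 3 members, H2-Oa, H2-Ob and H2-Eb1, and in 1.41% of all 32851 windows. H2-Aa lacks the A before its core, and was found by the shorter letters GCAAC, chosen after the sequences were seen. The pair with GCAAC was in 4 members and in 1.24% of all windows. The CCAAT box alone, in 37.4% of all windows, was also in a window of H2-DMa, as was the RFX core alone, in 48.1%. No match was found in the Ctss window by the pair or by either motif. A match in letters is a description of the window and not a measured site of binding.

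**Figure D1:**
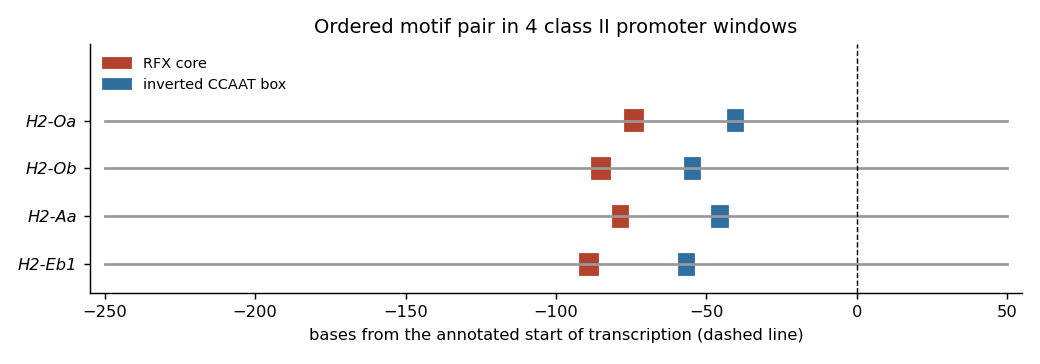
Position of the RFX core (red) and the inverted CCAAT box (blue) in the promoter windows of 4 members, in bases from the annotated start of transcription. The cores begin 77 to 92 bases before the start, and 25 to 28 bases lie between the motifs.

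The targeted genes were measured first. Kdm4a had log2 values of 8.08 and 8.05 with the Jmjd2a label and 8.20 and 8.17 in controls at day 3, and 7.94 and 8.09 against 7.90 and 7.92 in controls at day 1. Kdm4c had 7.81 and 7.78 with the Jmjd2c label and 7.96 and 7.56 in controls at day 3, and 8.02 and 7.98 against 7.78 and 7.84 in controls at day 1. Neither transcript was called lower: Kdm4a differed by -0.12 at day 3 (95% interval -0.31 to 0.07, limma adjusted p = 0.36) and 0.11 at day 1 (-0.09 to 0.30, adjusted p = 0.62), and Kdm4c by 0.03 (-0.23 to 0.29, adjusted p = 0.91) and 0.19 (-0.06 to 0.45, adjusted p = 0.41). The groups are therefore called by their labels, since these values do not establish the depletion on any day, nor what each difference from control compares. Correlation over all probe sets set the arrays labelled depleted at day 3 nearer to the day 1 controls (r averaged 0.9967 for the Jmjd2a label, 0.9955 for Jmjd2c) than to the controls of their own day (0.9849 and 0.9877). Day 3 control replicate 2 had the narrowest interquartile range, 3.09 against 3.38 to 3.63 on the others. All 7 B cell markers measured, Ms4a1 and Cd79b among them, had a mean above the median level of all probe sets, 5.22 log2 units. In cultures measured in bulk, fewer cells of a type and less RNA per cell cannot be told apart.

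At day 1 all 9 members rose on the arrays labelled Jmjd2a-depleted and on those labelled Jmjd2c-depleted. Both comparisons share their control arrays. The background of higher calls was 4.23% and 5.32% of all probe sets. In a fit of only the probe sets at or above the median level, as all 9 members are, 17.2% and 24.1% were called in either direction. The members were chosen with earlier results of these data known, so their count is not independent support. The median log2 difference of the members was 0.65 and 0.87, beside -0.04 and -0.03 over all probe sets. Groups of the 9 members overlapped in none of the comparisons, where 20.2% and 21.5% of all probe sets lay higher without overlap. Tests are those of limma across all probe sets, and a gene was called where the Benjamini-Hochberg adjusted p was under 0.05.

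The largest rises were those of the 2 chains of H2-DO. H2-Ob, the beta chain, had log2 values of 11.40 and 10.87 on the Jmjd2a arrays and 11.34 and 11.27 on the Jmjd2c arrays, against 8.71 and 8.72 in controls. H2-Oa, the alpha chain, had 10.37 and 10.23 on the Jmjd2a arrays and 10.32 and 11.16 on the Jmjd2c arrays, against 7.86 and 7.99 in controls. All 4 arrays labelled depleted stood more than 2 log2 units above the controls for both genes, and Jmjd2c replicate 2 was highest for H2-Oa. The difference of H2-Ob was 2.42 ± 0.13 and 2.60 ± 0.13 (SE, limma adjusted p = 9.6e-07 and 4.5e-07), or 5.36-fold and 6.05-fold. The difference of H2-Oa was 2.37 ± 0.19 and 2.82 ± 0.19 (adjusted p = 1.9e-05 and 3.4e-06), or 5.19-fold and 7.05-fold.

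H2-DMa, the alpha chain of the peptide exchanger that H2-DO inhibits, rose by less. It had 11.09 and 10.99 on the Jmjd2a arrays and 11.14 and 11.70 on the Jmjd2c arrays, against 9.79 and 9.78 in controls. The differences were 1.26 ± 0.13 and 1.64 ± 0.13 (SE, limma adjusted p = 0.00012 and 1.2e-05). Their 95% intervals, 0.97 to 1.54 and 1.35 to 1.92, did not reach those of H2-Ob, 2.13 to 2.72 and 2.30 to 2.89. On each day 1 array labelled depleted, the inhibitor's beta chain stood further above its controls than the exchanger's alpha chain: H2-Ob minus H2-DMa stood above its mean in day 1 controls by 1.39 and 0.94 on the Jmjd2a arrays and by 1.27 and 0.64 on the Jmjd2c arrays. For H2-Oa minus H2-DMa these were 1.14 and 1.09, and 1.04 and 1.32. No test was made of these differences within arrays.

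The classical chains, which bind the peptide, rose by less. H2-Aa, the alpha chain of I-A, had 13.79 and 13.75 on the Jmjd2a arrays and 13.83 and 13.82 on the Jmjd2c arrays, against 13.40 and 13.41 in controls. Its difference was 0.37 ± 0.03 and 0.42 ± 0.03 (SE, limma adjusted p = 1.3e-05 and 3.3e-06), the smallest of the 9 differences, and with the smallest errors. H2-Ab1, the beta chain of I-A, had 13.04 and 12.82 on the Jmjd2a arrays and 13.03 and 13.26 on the Jmjd2c arrays, against 12.30 and 12.25 in controls. Its difference was 0.65 ± 0.08 and 0.87 ± 0.08 (adjusted p = 0.0003 and 2.4e-05). H2-Eb1, the beta chain of I-E, had 12.92 and 12.92 on the Jmjd2a arrays and 12.97 and 13.16 on the Jmjd2c arrays, against 12.33 and 12.35 in controls. Its difference was 0.58 ± 0.06 and 0.73 ± 0.06 (adjusted p = 7.4e-05 and 8.7e-06). No day 1 array labelled depleted overlapped a day 1 control array for any of these chains. The brightest H2-Aa probe set came within 0.66 log2 units of the highest value of an array, and whether the top of the scale narrowed its differences was not tested.

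Cd74, the invariant chain, and Ctss, the protease that trims it, rose least together with H2-Aa. Cd74 had 12.23 and 11.93 on the Jmjd2a arrays and 12.19 and 12.24 on the Jmjd2c arrays, against 11.70 and 11.63 in controls, and differed by 0.41 ± 0.08 and 0.55 ± 0.08 (SE, limma adjusted p = 0.0085 and 0.0011). Ctss had 12.59 and 12.61 on the Jmjd2a arrays and 12.47 and 12.78 on the Jmjd2c arrays, against 12.19 and 12.20 in controls, and differed by 0.40 ± 0.08 and 0.43 ± 0.08 (adjusted p = 0.0092 and 0.0047). With the Jmjd2a label these calls ended without 1 array: for Cd74 the difference was 0.45, 0.38 and 0.27 without control replicate 1, control replicate 2 and Jmjd2a replicate 1 (adjusted p = 0.051, 0.1 and 0.06). For Ctss it was 0.40, 0.41 and 0.42 without the same arrays (adjusted p = 0.083, 0.077 and 0.054). With the Jmjd2c label the call of Ctss ended without control replicate 1 (0.42, adjusted p = 0.051). With no intensity trend in the fit, neither passed with the Jmjd2a label (adjusted p = 0.062 for Cd74 and 0.07 for Ctss).

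Ciita, the coactivator, rose by an estimate of more than 2-fold. Against a floor of 1.5-fold it did not pass with the Jmjd2a label (limma adjusted p = 0.12). It had 9.17 and 8.76 on the Jmjd2a arrays and 9.07 and 9.05 on the Jmjd2c arrays, against 7.78 and 7.62 in controls. The difference was 1.26 ± 0.17 and 1.36 ± 0.17 (SE, limma adjusted p = 0.00091 and 0.00038). On each day 1 array labelled depleted it stood further above its controls than Cd74: Ciita minus Cd74 stood above its mean in day 1 controls by 0.91 and 0.80 on the Jmjd2a arrays and by 0.85 and 0.78 on the Jmjd2c arrays. At day 3 it stood above that mean by 0.76 and 0.11 in controls, 0.53 and 0.19 on the Jmjd2a arrays and 0.06 and 0.08 on the Jmjd2c arrays. These differences within arrays were not tested.

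**Figure D2:**
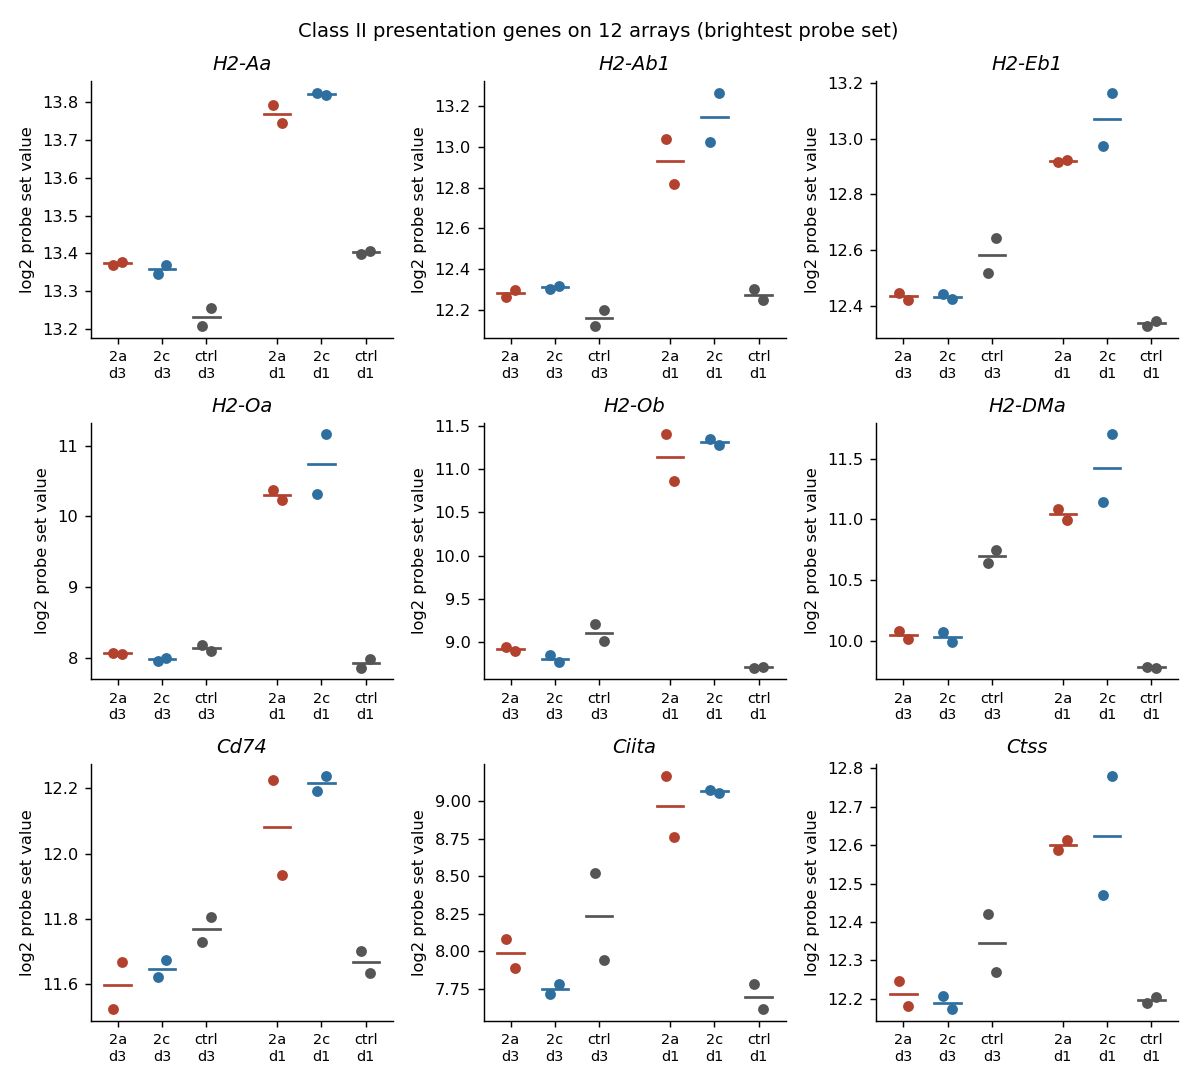
Log2 value of the brightest probe set of each of the 9 members on every array. Points are arrays and lines are means of 2, for the labels Jmjd2a (2a), Jmjd2c (2c) and control (ctrl) at day 3 (d3) and day 1 (d1), and each panel has its own scale. In every panel the 4 arrays labelled depleted at day 1 stand above all the others.

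The other probe sets of the same genes mostly moved alike at day 1. Of all 17, 16 were higher past the test with either label and none was lower. The 3 dimmer H2-Aa probe sets differed by 0.40, 0.64 and 0.61 with the Jmjd2a label and by 0.38, 0.75 and 0.74 with the Jmjd2c label (largest limma adjusted p = 0.011). Thus the dimmer 2 of H2-Aa gave larger differences than the brightest. The 2 other H2-Ab1 probe sets differed by 0.81 and 0.78, and by 1.04 and 0.99. The second H2-DMa probe set differed by 0.74 and 1.11, less than the first. A second Ciita probe set differed by 1.12 and 1.15, while the third, whose mean of 5.10 lies below the median of all probe sets, differed by 0.07 and 0.05 and did not pass (adjusted p = 0.94 and 0.96). By their names, several H2-Aa and H2-Ab1 probe sets may bind transcripts of related genes, and how much of their signal comes from near-identical chains was not tested.

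**Figure D3:**
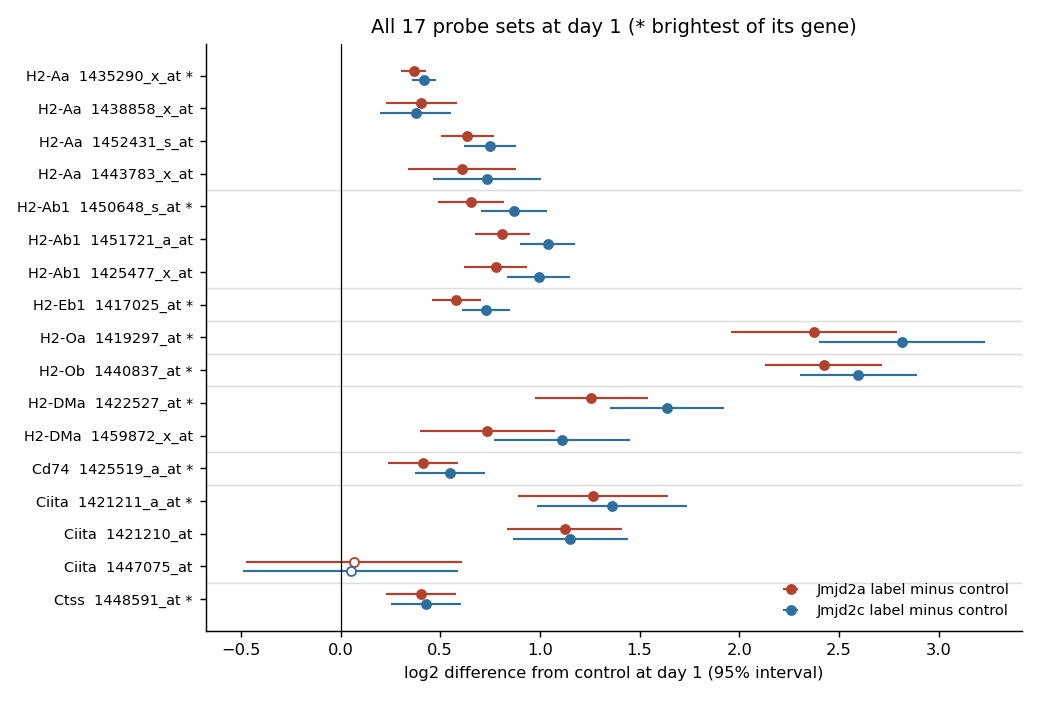
Log2 difference from control at day 1 for all 17 probe sets, with 95% intervals from limma, for the Jmjd2a (red) and Jmjd2c (blue) label. Filled points have an adjusted p under 0.05, and the only open points are those of the dimmest Ciita probe set.

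At day 3 most members did not pass the test. Of the 9, H2-Aa rose and H2-DMa fell with either label, and 7 did not pass. The background was 13.7% higher and 7.11% lower calls for the Jmjd2a label, and 9.28% and 5.04% for the Jmjd2c label, so 1 call in each direction among 9 is near it. In the fit of only the probe sets at or above the median level, 40% and 30.7% were called in either direction. The median difference of the members was -0.15 with either label, beside -0.04 and -0.01 over all probe sets.

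H2-DMa had 10.08 and 10.02 on the Jmjd2a arrays and 10.07 and 9.99 on the Jmjd2c arrays, against 10.64 and 10.75 in controls. The difference was -0.65 ± 0.13 and -0.67 ± 0.13 (SE, limma adjusted p = 0.004 and 0.0042), the reverse of day 1. H2-Aa had 13.37 and 13.38 on the Jmjd2a arrays and 13.35 and 13.37 on the Jmjd2c arrays, against 13.21 and 13.26 in controls, a rise of 0.14 ± 0.03 and 0.13 ± 0.03 (adjusted p = 0.0036 and 0.0092). Without Jmjd2c replicate 2 of day 3 both calls ended with that label, at -0.63 for H2-DMa and 0.11 for H2-Aa (adjusted p = 0.055 and 0.11). By their second probe sets neither gene passed: H2-DMa differed by -0.34 and -0.30 (adjusted p = 0.14 and 0.27), and H2-Aa by 0.07 and 0.07 (adjusted p = 0.58 and 0.69). With no intensity trend H2-Aa did not pass either (adjusted p = 0.22 and 0.36).

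Differences of the remaining members at day 3 did not pass, and most were negative. H2-Ab1 differed by 0.12 and 0.15, H2-Eb1 by -0.15 and -0.15, H2-Oa by -0.07 and -0.16 and H2-Ob by -0.19 and -0.30 (limma adjusted p = 0.085 to 0.82). Cd74 differed by -0.17 and -0.12 and Ctss by -0.13 and -0.15 (adjusted p = 0.15 to 0.41). Without 1 array some of these passed. They were Cd74 with the Jmjd2a label (-0.17, adjusted p = 0.046 without Jmjd2a replicate 1 or 2 of day 1) and H2-Ob with the Jmjd2c label (-0.30, adjusted p = 0.029 and 0.028 without the same arrays). H2-Eb1 passed with either label without Jmjd2c replicate 1 or 2 of day 1 (-0.15, adjusted p = 0.028 and 0.035) or without day 3 control replicate 1 (-0.21, adjusted p = 0.018 and 0.023).

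Ciita at day 3 depended on which control array was kept. It had 8.08 and 7.89 on the Jmjd2a arrays and 7.71 and 7.78 on the Jmjd2c arrays, against 8.52 and 7.95 in controls, which lay farther apart than the replicates of any other group for this gene. The difference was -0.25 ± 0.17 and -0.48 ± 0.17 (SE, limma adjusted p = 0.34 and 0.089). Without control replicate 2, the array of narrow range, it was -0.53 and -0.77 (adjusted p = 0.022 and 0.0026). Without control replicate 1 it was 0.04 and -0.20 (adjusted p = 0.85 and 0.35). With the Jmjd2c label it passed after quantile normalization (-0.57, adjusted p = 0.014). The second Ciita probe set differed by -0.31 and -0.48 (adjusted p = 0.13 and 0.028).

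**Figure D4:**
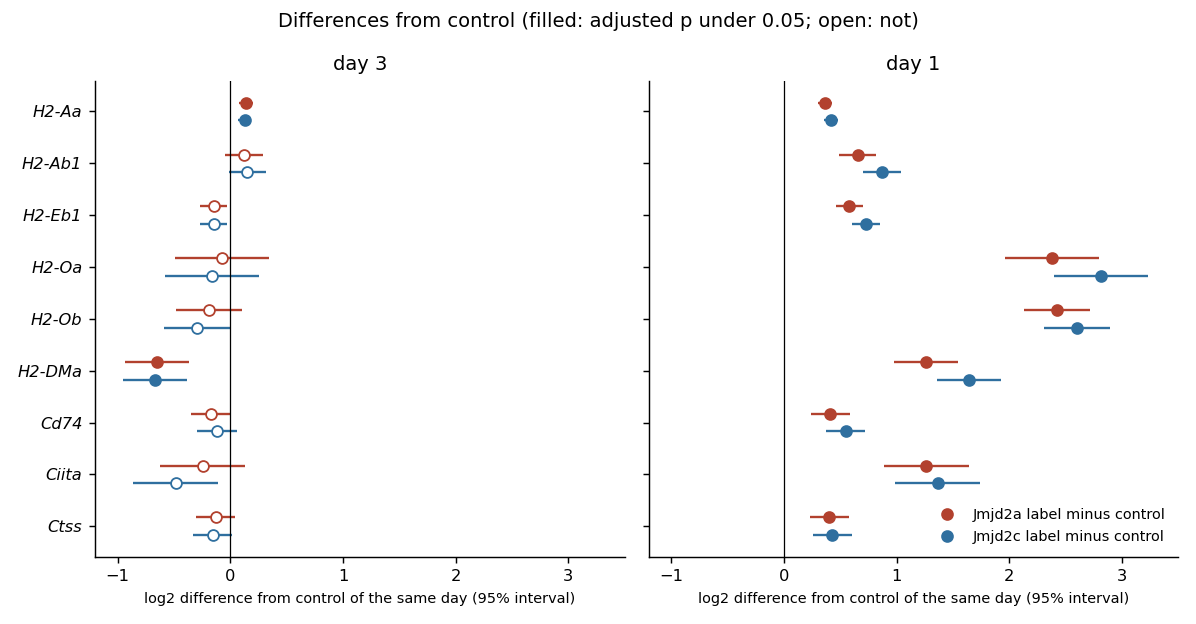
Log2 differences of the 9 members from the controls of the same day, with 95% intervals from limma, at day 3 (left) and day 1 (right). At day 1 every point is filled (adjusted p under 0.05) and above 0, and at day 3 only H2-Aa, above 0, and H2-DMa, below 0, are filled.

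Between the days the controls moved in part of the members. In controls 3 members were higher at day 3 than at day 1 and 1 was lower, against a background of 8.46% and 15.4%. Among probe sets at or above the median level, fitted alone, 45% were called in either direction, and 4 calls among 9 are near that share. H2-DMa had 10.64 and 10.75 at day 3, against 9.79 and 9.78 at day 1, a rise of 0.91 ± 0.13 (SE, limma adjusted p = 0.0003). H2-Eb1 had 12.52 and 12.65 at day 3, against 12.33 and 12.35 at day 1, a rise of 0.24 ± 0.06 (adjusted p = 0.0071). Ciita had 8.52 and 7.95 at day 3, against 7.78 and 7.62 at day 1, a rise of 0.53 ± 0.17 (adjusted p = 0.042). H2-Aa fell by 0.17 ± 0.03 (adjusted p = 0.0008). H2-Ob differed by 0.40 and missed the threshold (adjusted p = 0.05), and H2-Ab1, H2-Oa, Cd74 and Ctss by -0.11 to 0.21 (adjusted p = 0.21 to 0.47).

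These control calls were not equally firm. That of Ciita ended without any 1 of 9 arrays: either control of day 1 (0.62 and 0.45), control replicate 1 of day 3 (0.25), either Jmjd2c array of day 1, and any array labelled depleted at day 3 (0.53), at adjusted p = 0.057 to 0.2. Its second probe set rose by 0.60 (limma adjusted p = 0.0055). That of H2-Eb1 ended without control replicate 1 of day 1 (0.23, adjusted p = 0.06) or control replicate 2 of day 3 (0.18, adjusted p = 0.057). H2-Ob passed without either Jmjd2a array of day 1 (0.40, adjusted p = 0.0039 and 0.0038) or control replicate 2 of day 3 (0.50, adjusted p = 0.035). By its second probe set H2-DMa differed by 0.45 (adjusted p = 0.054), and H2-Aa by -0.16 (adjusted p = 0.18). With no intensity trend the calls of H2-Aa, H2-Eb1 and Ciita ended (adjusted p = 0.14, 0.082 and 0.065).

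Under either depletion label all 9 members were lower at day 3 than at day 1. The background of lower calls was 3.35% for the Jmjd2a label and 5.36% for the Jmjd2c label, and the medians of the members were -0.65 and -0.83, beside 0.03 and 0.05 over all probe sets. H2-Oa lay between 7.95 and 8.07 on the 4 arrays labelled depleted at day 3, against 10.23 to 11.16 on those of day 1. The difference was -2.24 and -2.77 (limma adjusted p = 3.7e-05 and 4.9e-06). It was -2.22 and -2.50 for H2-Ob, -0.98 and -1.31 for Ciita, -0.99 and -1.39 for H2-DMa, -0.65 and -0.83 for H2-Ab1 and -0.48 and -0.63 for H2-Eb1 (largest adjusted p = 0.0056). For H2-Aa it was -0.40 and -0.46, for Cd74 -0.49 and -0.57 and for Ctss -0.39 and -0.43, with a largest adjusted p = 0.014. With the Jmjd2a label the call of Ctss ended without any 1 of its 4 arrays (adjusted p = 0.06 to 0.16) and with no intensity trend (adjusted p = 0.094), that of Cd74 without Jmjd2a replicate 1 of day 3 (adjusted p = 0.068), and that of Ciita without Jmjd2a replicate 1 of day 1 or replicate 2 of day 3 (adjusted p = 0.082 and 0.091). With the Jmjd2c label that of Ctss ended without Jmjd2c replicate 2 of day 3 (adjusted p = 0.06).

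The difference between the days was itself tested as the day 3 difference from control minus the day 1 difference from control. All 9 members passed, each with a negative value, for either label (limma adjusted p up to 0.0055 and 0.0031). The background of negative calls was 6.36% and 6.84% of all probe sets. Values reached -2.61 and -2.90 for H2-Ob, -2.45 and -2.98 for H2-Oa, and -1.91 and -2.31 for H2-DMa, with the Jmjd2a and the Jmjd2c label. At the other end stood H2-Aa at -0.22 and -0.29, whose call ended with no intensity trend (adjusted p = 0.21 and 0.1) and by its second probe set (-0.33 and -0.31, adjusted p = 0.068 and 0.093).

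Set against the day 1 controls, the arrays labelled depleted at day 3 gave no call among the members. For H2-Ob they had 8.94 and 8.90 with the Jmjd2a label and 8.86 and 8.77 with the Jmjd2c label, against 8.71 and 8.72 in day 1 controls. Differences of the 9 ranged between -0.07 and 0.29 for the Jmjd2a label and between -0.04 and 0.25 for the Jmjd2c label, with 95% intervals inside -0.28 to 0.66 and -0.37 to 0.53. By limma, 0.167% and 0.16% of all probe sets were called there, and 0 members had an unadjusted p under 0.05. These contrasts change day and label at once.

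The Jmjd2a and Jmjd2c labels were not separated by any member. At day 1 the Jmjd2a minus Jmjd2c differences were all negative, between -0.44 (H2-Oa, 95% interval -0.86 to -0.03) and -0.02 (Ctss, -0.20 to 0.15), with limma adjusted p = 1. At day 3 they ranged between -0.05 for Cd74 and 0.24 for Ciita. Of the members, 4 at day 1 and 0 at day 3 had an unadjusted p under 0.05. No probe set of the whole array was called between the labels, a background of 0%. For H2-Oa, H2-DMa, H2-Ab1, H2-Eb1, Cd74 and Ctss, replicate 2 of the Jmjd2c label at day 1 stood highest of all 12 arrays, and the summed linear level of the 13 macrophage and monocyte markers was also highest there, 9134 against 3915 to 5341 on the other arrays labelled depleted at day 1.

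The rest of the class II pathway was described by lists of genes with a known part in it. These lists were chosen with earlier results of these data known. Of 15 measured partners and editors of class II, 10 rose and 0 fell with the Jmjd2a label at day 1. With the Jmjd2c label 10 rose and 1 fell. The background was 4.23% and 5.32% higher and 3.25% and 5.69% lower calls. The gene that fell was Cd83, a surface molecule of activated B cells (-0.19, limma adjusted p = 0.037). Among the risen were H2-DMb2, the other chain of H2-DM (1.25 and 1.51), H2-Eb2 (1.04 and 1.04), Lgmn, an endosomal protease (0.69 and 0.70), Ifi30, the thiol reductase that opens antigens for loading (0.95 and 1.18), and Marchf1, a ubiquitin ligase that sends class II to degradation (1.06 and 1.18), with a largest adjusted p = 0.0015. At day 3 this list showed 7 falls and 1 rise with either label, the rise being that of the cathepsin Ctsz (0.23 and 0.17, limma adjusted p = 0.0013 and 0.012). The background was then 13.7% and 9.28% higher and 7.11% and 5.04% lower calls. At or above the median level, 17.2% and 24.1% were called in either direction at day 1, and 40% and 30.7% at day 3. Cst3, a cathepsin inhibitor, fell by 1.33 and 1.37, Ctsl, another endosomal protease, by 0.92 and 1.16, Ifi30 by 0.80 and 0.70 and Ctsd by 0.53 and 0.65 (largest limma adjusted p = 0.0059). In controls the same genes had risen between the days, Cst3 by 2.07, Ctsl by 1.46, Ctsd by 1.04 and Ifi30 by 1.03 (largest adjusted p = 0.00014). H2-Ea differed by -0.02 and 0.10 at day 1 (adjusted p = 0.97 and 0.72), and C57BL/6 mice are known to lack I-E at the cell surface because this alpha chain is not made.

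Regulators of class II transcription moved in either direction. Of 16 measured, 2 rose and 1 fell with the Jmjd2a label at day 1. With the Jmjd2c label 1 fell and 5 rose, among them Crebbp (0.28), Ep300 (0.28) and Irf8 (0.15) (limma adjusted p = 0.033 to 0.047). Over all probe sets 4.23% and 5.32% were called higher and 3.25% and 5.69% lower. Among probe sets at or above the median level, as all 16 are, 17.2% and 24.1% were called in either direction when fitted alone. Rfx5, a subunit of the X box factor, rose by 0.37 and 0.48 and Irf1, an interferon response factor that acts on Ciita, by 0.50 and 0.70 (limma adjusted p = 0.00058 to 0.0072). Zbtb32, a repressor in B cells and plasma cells, fell by 0.42 and 0.43 (adjusted p = 0.0074 and 0.0049). At day 3 this list showed 4 rises and 3 falls with either label. The shares over all probe sets were then 13.7% and 9.28% higher and 7.11% and 5.04% lower. At or above the median level they were 40% and 30.7% in either direction. The counts with the Jmjd2a label are thus near that share on both days. Rfx5 fell by 0.52 and 0.40, Irf1 by 0.80 and 0.80 and Zbtb32 by 0.47 and 0.53, while Crebbp, a histone acetyltransferase, rose by 0.55 and 0.42 (largest adjusted p = 0.0025). Nfya, a subunit of the Y box factor NF-Y, rose by 0.74 and 0.58 (adjusted p = 0.0029 and 0.015). Prdm1, the plasma cell repressor of Ciita, differed by -0.04 and -0.25 at day 1 and by 0.05 and -0.17 at day 3 (adjusted p = 0.42 to 0.95).

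Other signals that B cells give to T cells were mixed. Of 8 costimulatory genes, 2 rose and 1 fell at day 1 with either label. Over all probe sets 4.23% and 5.32% were called higher and 3.25% and 5.69% lower. Icosl, the ligand of ICOS on follicular helper T cells, rose by 1.57 and 1.54 and Cd274, which encodes PD-L1, by 0.43 and 0.55, while Tnfsf4, which encodes OX40 ligand, fell by 0.33 and 0.40 (limma adjusted p = 0.00014 to 0.026). At day 3 there were 3 falls, those of Cd86 (-0.86 and -0.93), Tnfsf4 (-0.50 and -0.55) and Cd70 (-1.06 and -0.81), with a largest limma adjusted p = 0.013. The shares over all probe sets were then 13.7% and 9.28% higher and 7.11% and 5.04% lower. Of 16 measured class I presentation genes, 4 rose and 1 fell with the Jmjd2a label at day 1, and 7 rose and 2 fell with the Jmjd2c label. At day 3 there were 3 rises and 7 falls with the Jmjd2a label and 4 rises and 8 falls with the Jmjd2c label. The shares over all probe sets are those given for the costimulatory genes. For both lists, the shares called in either direction at or above the median level were 17.2% and 24.1% at day 1. At day 3 these shares were 40% and 30.7%. The median difference of the class I genes at day 1 was 0.08 and 0.17, against 0.65 and 0.87 for the class II members. H2-K1 (0.41 and 0.52) and H2-D1 (0.37 and 0.52), the classical class I heavy chains, rose (largest adjusted p = 0.00018), and Erap1, which trims peptides for class I, fell by 0.35 and 0.38 (adjusted p = 0.026 and 0.012).

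Markers of other class II bearing cells moved on the same arrays. Over all probe sets 4.23% and 5.32% were called higher at day 1, and 7.11% and 5.04% lower at day 3. Higher calls at day 3 were 13.7% and 9.28%. At day 1, 12 of 13 macrophage and monocyte markers rose with either label, with a median of 2.08 and 2.11, and their summed linear level was 3915 to 9134 on the arrays labelled depleted, against 779.3 and 779.7 in controls. Of 9 dendritic cell markers, 2 and 4 rose, with a median of 0.10 and 0.12, and the summed level was 790.7 to 848.6, against 482.8 and 489.9 in controls. Dpp4 (1.35 and 1.37) and Siglech (0.90 and 0.90) rose with either label (largest limma adjusted p = 0.0016), and Flt3 (0.55 and 0.74) and Clec10a (0.34 and 0.73) passed with the Jmjd2c label (adjusted p = 0.028 and 0.014), while the Jmjd2a label gave adjusted p = 0.12 and 0.29. Xcr1 (-0.15 and 0.01), Itgax (-0.04 and 0.02) and Zbtb46 (0.01 and -0.14) were among those that did not pass (limma adjusted p = 0.68 to 0.99). Of 7 B cell markers, 4 and 5 rose, with a median of 0.64 and 0.79. Their summed level was 18039 to 23063 on the arrays labelled depleted, against 8749 and 8925 in controls. At day 3, 8 and 6 of the macrophage markers fell, and the summed level was 1237 to 1441 on the arrays labelled depleted, against 3191 and 3229 in controls. The summed dendritic cell level was then 522.1 to 598.2, against 807.5 and 1005 in controls. Few of these 9 markers passed: 0 rose and 2 fell with the Jmjd2a label, and 1 rose and 1 fell with the Jmjd2c label. At day 1 also 2 of 7 T cell markers, 3 and 4 of 4 NK cell markers and 2 and 3 of 6 plasma cell markers rose, with Sdc1 lower (-0.41 and -0.51). Of 5 neutrophil markers 0 passed by limma, with a median of 2.11 and 2.60. Their summed level was 303 and 3368 on the Jmjd2a arrays and 294 and 6331 on the Jmjd2c arrays, replicate 2 being the higher one in both, against 146 and 153 in controls. At day 3, 3 of the 4 NK cell markers fell with either label, and 1 and 0 of the T cell markers. Of the plasma cell markers 4 and 3 fell and 1 rose, and of the B cell markers 1 fell and 1 rose with either label. The part of all these cells in the class II differences was not tested.

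**Figure D5:**
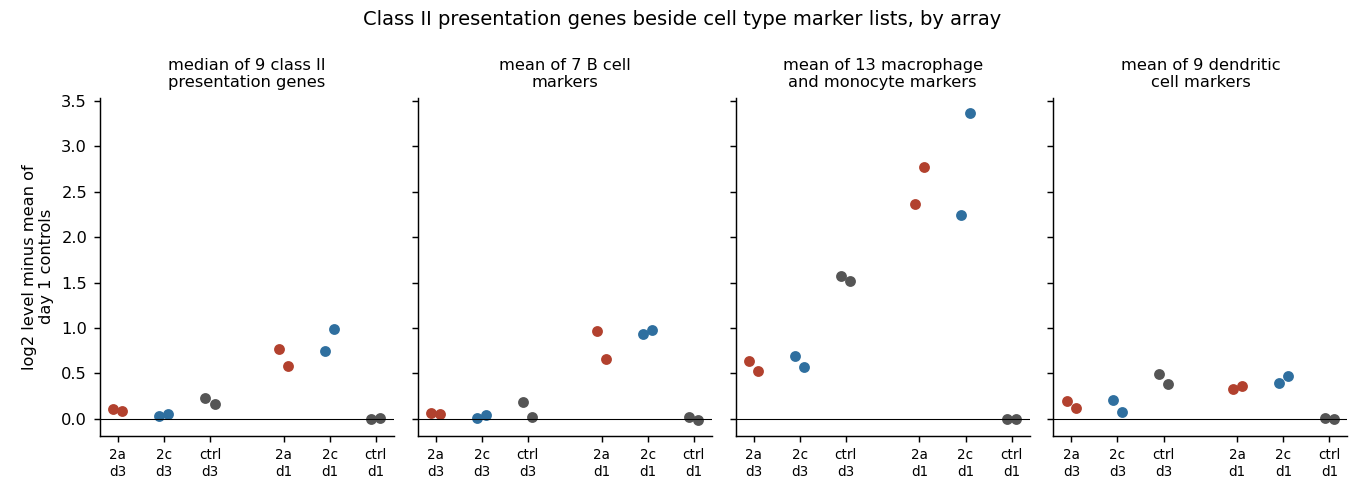
Log2 level on each array minus the mean of the day 1 controls, for the median of the 9 members and for the means of 3 marker lists, with groups as in the plot of member levels. On the arrays labelled depleted at day 1 the members stand 0.59 to 0.99 above the day 1 controls. On all others they stand at most 0.22 above. The B cell markers follow a like course, at 0.65 to 0.97 and at most 0.19. The macrophage and monocyte markers also stand high in the day 3 controls.

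Genes outside the list that followed a member most closely were sought over the 12 arrays, which fall into clusters by group, so the likeness mostly reflects the arrays labelled depleted at day 1 against the rest. For Ciita the closest were Mycbp2 (Pearson r = 0.9932), Atp10d (0.9912), Rasgrp1 (0.9884), Ankrd44 (0.9882) and Crebrf (0.9871). For H2-Aa they were Fcrl1 (0.9947), Itpr3 (0.9944), Itprip (0.9921), Carmil1 (0.991) and Il17ra (0.991). The 2 sets share no gene, but lists this short cannot show that Ciita and H2-Aa differ in what follows them. Mean levels of Fcrl1, an Fc receptor-like molecule of B cells, were 9.75 and 9.72 on the Jmjd2a and Jmjd2c arrays of day 3, against 9.34 in day 3 controls, and 10.62 and 10.73 on those of day 1, against 9.79 in day 1 controls. Mean levels of Rasgrp1, a Ras activator, were 7.33 and 7.06 at day 3, against 7.83 in controls, and 8.75 and 8.83 at day 1, against 7.07 in controls.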

How the data were processed

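Affymetrix probe set values of 12 arrays were used as deposited by the authors, on a log2 scale; their summarization and normalization are not given in the sources used here. Of 45101 probe sets, 64 controls were left out, and 45037 were tested: 34945 named 1 gene, 932 several and 9160 none, by the platform annotation. Arrays carry no read depth; their number limits precision. One limma model (3.58.1, R 4.3.3) of 6 group means was fitted, moderated by empirical Bayes with a trend on intensity, with 6 residual and 5.85 prior degrees of freedom, 13 contrasts, and Benjamini-Hochberg adjustment over all probe sets. On simulated data for Jmjd2a label minus control at day 1, over 45037 probe sets of which 200 changed, the share found was 18% at 1.5-fold, 79% at 2-fold and 99% at 4-fold, and 0 to 8 unchanged probe sets were called. In the deposited data 3366 probe sets were called in this contrast, so the simulated shares need not hold there. Members and lists were chosen with earlier results of these data known. All members are named; of other lists, at most 4 of smallest adjusted p in a comparison, while Lgmn, Marchf1, H2-Ea, Cd83, Ctsz, Irf8, Ep300, Prdm1, Sdc1, Xcr1, Itgax and Zbtb46 were chosen after their values were seen. Not measured by a probe set of their own were H2-DMb1, Atf1, H2-T23, Psme2 and Klrb1c; some other list genes are not reported here. March1 and March8 were found as Marchf1 and Marchf8 by Entrez ID. The letters GCAAC were added after the promoters were seen. Alternatives were other normalizations, no dim probe sets, no trend, array weights, a replicate block, a 1.5-fold floor, other probe sets, arrays of the same day, and leaving out each array. Figures were drawn with matplotlib 3.10.9.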

Additional observations from a re-analysis of the deposited data

Results flagged for a closer look

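For all 9 members the difference from control at day 3 was not that of day 1, by a test of the change itself (limma, adjusted p up to 0.0055 with the Jmjd2a and 0.0031 with the Jmjd2c label). H2-Aa did not pass this test with no intensity trend (adjusted p = 0.21 and 0.1) or by its second probe set (adjusted p = 0.068 and 0.093), and a floor of 1.5-fold left 3 and 4 of the members past it. With the Jmjd2a and then the Jmjd2c label the day 3 difference minus the day 1 difference was -0.224 and -0.293 for H2-Aa, -0.532 and -0.719 for H2-Ab1 and -0.728 and -0.879 for H2-Eb1. It was -2.448 and -2.975 for H2-Oa, -2.613 and -2.895 for H2-Ob and -1.907 and -2.307 for H2-DMa. For Cd74 it was -0.585 and -0.668, for Ciita -1.51 and -1.848, and for Ctss -0.534 and -0.582. Of these, H2-DMa had differences past the test in opposite directions on the 2 days, while H2-Aa was higher on both days by its brightest probe set. The labels share their controls, so their values are not independent. Groups of 2 arrays are too small for a test of single arrays.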

How the results depend on the processing

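With a floor of 1.5-fold the numbers of the 9 members past the test were, for the Jmjd2a and Jmjd2c label, 3 and 4 at day 1, 0 and 0 at day 3, 2 and 3 between the days and 3 and 4 for the change of the difference, and 0 between the days in controls. Without the intensity trend they were 7 and 9 at day 1, where Cd74 and Ctss lost the call with the Jmjd2a label (adjusted p = 0.062 and 0.07), 1 and 1 at day 3, 8 and 9 between the days, where Ctss lost it (0.094), 8 and 8 for the change of the difference, where H2-Aa lost it (0.21 and 0.1), and 1 between the days in controls, with array weights 1 for the Jmjd2c label at day 3, and with second probe sets 0 and 1 at day 3, 2 in controls and 8 and 8 for the change of the difference, where H2-Aa lost it (0.068 and 0.093). The cause was not tested. Leaving out 1 array gave 7 to 9 and 8 to 9 members at day 1, 2 to 3 and 0 to 3 at day 3, 2 to 5 between the days in controls, 7 to 9 and 8 to 9 between the days under the labels, and 9 for the change of the difference, whichever array was left out. Of 1611 recomputed values of single members, 1493 kept their direction and side of the threshold, 92 lost the call, 23 gained one and 3 changed sign: Ciita with the Jmjd2a label at day 3 (0.042 without control replicate 1, and -0.533 without control replicate 2), and H2-Ab1 by its second probe set, with the Jmjd2c label at day 3 (-0.028) and between the days in controls (0.008), none of them called. Of 718 values in the contrasts without a call, 28 changed sign and 0 were called. With the replicate number as a block, 9 members passed with either label at day 1, 2 and 3 at day 3, 5 between the days in controls, and 9 in each test of days under the labels. Replicate differences correlated at 0.392 between the labels at day 1, so replicates of the same number were not unrelated there. Elsewhere they correlated at -0.111 to 0.092, and the main fit did not take the numbers as pairs. Fits within a day could not be made for contrasts between days.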
